A study of Mus musculus with 34 samples.

Results

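At 2152 places in the mouse genome, an H3K4me3 peak was called at the end of a protein-coding gene in every library of growth-restricted mice (FGR) and in no library of control mice (Ctrl). These regions were found by merging all peaks of the 8 H3K4me3 peak lists into 55005 regions. Of these, 15103 overlapped the 1 kb to either side of a start or stop coordinate of 1 of 21627 protein-coding genes of RefSeq (assembly GRCm38.p6, the assembly of the mm10 peak files), and 13979 had a peak in all 4 FGR lists and no Ctrl list. The 2152 regions that met both conditions were 14.2% of the gene-end regions and 15.4% of the FGR-only regions. They lay at 2176 genes, 10.1% of those annotated. The regions were chosen by their H3K4me3 peaks, so their H3K4me3 values are given as a description, and the acetylation lists, which the choice did not use, carry the comparison.

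The study profiled histone marks by ULI-NChIP-seq, a native chromatin immunoprecipitation for small cell numbers, in microglia of the hippocampus. FGR mice, the offspring restricted in growth before birth, were set against Ctrl mice, and all libraries of both groups carry the label Tmem119-tdTomato+/-, a reporter allele at a gene of microglia. Replicates 1 to 3 are labelled as taken at 3 weeks after birth, and the labels of replicate 4 give no age. H3K4me3, H3K9ac, H3K27ac and H3K9me3 each have 4 FGR and 4 Ctrl peak lists. The labels say neither how growth was restricted, nor the sex, nor whether libraries of a group came from separate animals, so p-values measure the spread between these libraries, which may be technical.

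H3K4me3 is laid down at the starts of active genes and at many inactive genes with CpG-rich starts, where it can stand beside Polycomb repression. H3K9ac marks active promoters and follows H3K4me3 closely, while H3K27ac marks both active promoters and active enhancers. In microglia, acetylated enhancers near lineage genes are bound by PU.1, the myeloid master factor. In bulk chromatin such as this, a change in the makeup of the cells and a change of the mark in each cell cannot be told apart.

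The libraries of both groups differed in ways that touch every result here. H3K4me3 lists held 43052 to 48922 peaks in FGR and 16551 to 18344 in Ctrl, and 0 gene-end regions were called in all 4 Ctrl lists and no FGR list. The highest fold enrichment of any peak in an H3K4me3 list was 50.8 to 62.9 in FGR and 9.52 to 9.71 in Ctrl, and the narrowest peak was 148 to 150 bp wide in FGR and 275 to 280 bp in Ctrl. Acetylation peaks were narrower in FGR by their median width. It was 407 to 460 bp in FGR and 634 to 696 bp in Ctrl for H3K9ac. For H3K27ac it was 314 to 365 bp in FGR and 825 to 920 bp in Ctrl. When every list was trimmed to its strongest peaks so that all lists of a mark were equally long, 391 regions met the rule. Read depth is unknown. The number of reads stacked at a peak's summit was solved from its fold and p by the formulas of MACS2. The lowest such number in an H3K4me3 list was 5 to 6 in FGR and 10 to 12 in Ctrl. In H3K9ac lists it was 4 in FGR and 8 to 9 in Ctrl, and in H3K27ac lists 4 to 5 and 8 to 9. The part of this calling floor in the rule was not tested. The FGR H3K4me3 libraries also stood apart in another way: over 43254 gene ends, which all libraries share, their covered length correlated more closely with Ctrl H3K9ac (mean Pearson r = 0.924) than with Ctrl H3K4me3 (0.845), while Ctrl H3K4me3 lists correlated with each other at 0.881. FGR H3K9ac in turn correlated more closely with Ctrl H3K9ac (0.851) than with Ctrl H3K4me3 (0.767), so Ctrl H3K9ac was the closer mark for FGR lists of either label. Whether FGR H3K4me3 and H3K9ac labels were exchanged was not tested. With those labels exchanged, the rule gave 2293 regions, of which 846 (39.3% of the 2152) were the same, and 24.1% of them had an H3K9ac peak in all 4 Ctrl libraries. Of 30 genes typical of homeostatic microglia, 24 carried H3K4me3 in all 4 FGR libraries and 22 in all 4 Ctrl libraries.

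The regions fell into 2 large sets by their acetylation in Ctrl, and start windows of both sets are shown for their CpG content and for a myeloid motif. They were picked by gene and do not stand for the CpG content of their sets, which had near-equal shares of CpG-rich windows (68.3% without Ctrl acetylation and 67.6% with both marks). Each window runs from 250 bases before to 50 bases after an annotated start in RefSeq (GRCm38.p6) and is written 5′ to 3′ on the strand of the gene, with each CpG in capitals. The first 4 belong to regions with no acetylation peak in any Ctrl library. They are Nkx6-1 (chr5:101664662-101664961, minus strand), Pou3f2 (chr4:22488317-22488616, minus strand), Hoxd13 (chr2:74667975-74668274, plus strand) and Slitrk5 (chr14:111675777-111676076, plus strand).
Nkx6-1: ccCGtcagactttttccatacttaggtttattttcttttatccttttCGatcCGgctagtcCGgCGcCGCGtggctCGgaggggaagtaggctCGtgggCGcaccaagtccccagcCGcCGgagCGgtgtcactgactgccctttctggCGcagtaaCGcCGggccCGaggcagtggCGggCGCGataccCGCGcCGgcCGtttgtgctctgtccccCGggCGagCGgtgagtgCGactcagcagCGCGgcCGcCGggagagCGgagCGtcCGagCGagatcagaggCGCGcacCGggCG
Pou3f2: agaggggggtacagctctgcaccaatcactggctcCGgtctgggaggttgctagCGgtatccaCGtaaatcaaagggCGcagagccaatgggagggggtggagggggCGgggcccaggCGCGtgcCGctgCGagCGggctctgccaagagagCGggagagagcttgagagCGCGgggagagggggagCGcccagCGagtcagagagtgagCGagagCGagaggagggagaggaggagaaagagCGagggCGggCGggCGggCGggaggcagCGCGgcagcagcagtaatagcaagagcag
Hoxd13: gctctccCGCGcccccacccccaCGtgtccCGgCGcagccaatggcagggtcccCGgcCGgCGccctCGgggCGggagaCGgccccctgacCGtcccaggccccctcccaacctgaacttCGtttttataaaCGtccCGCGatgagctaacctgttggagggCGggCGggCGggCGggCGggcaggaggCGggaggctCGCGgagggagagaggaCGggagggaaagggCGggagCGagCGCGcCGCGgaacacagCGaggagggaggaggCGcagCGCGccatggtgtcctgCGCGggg
Slitrk5: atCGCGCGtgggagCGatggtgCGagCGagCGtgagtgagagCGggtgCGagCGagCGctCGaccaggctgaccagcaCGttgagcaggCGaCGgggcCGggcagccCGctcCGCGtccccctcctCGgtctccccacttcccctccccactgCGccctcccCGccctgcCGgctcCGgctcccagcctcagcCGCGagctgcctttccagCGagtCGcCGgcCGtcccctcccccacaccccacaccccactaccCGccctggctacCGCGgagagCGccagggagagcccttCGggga
These 4 windows had a GC content of 67.3%, 67.7%, 74.3% and 74.3% in the order shown, and held 40, 24, 37 and 35 CpG.

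The next 4 windows belong to regions with both H3K9ac and H3K27ac in all 4 Ctrl libraries. They are Bcl2a1d (chr9:88731801-88732100, minus strand), Lyz2 (chr10:117282223-117282522, minus strand), C5ar1 (chr7:16259289-16259588, minus strand) and Rap2c (chrX:51017969-51018268, minus strand).
Bcl2a1d: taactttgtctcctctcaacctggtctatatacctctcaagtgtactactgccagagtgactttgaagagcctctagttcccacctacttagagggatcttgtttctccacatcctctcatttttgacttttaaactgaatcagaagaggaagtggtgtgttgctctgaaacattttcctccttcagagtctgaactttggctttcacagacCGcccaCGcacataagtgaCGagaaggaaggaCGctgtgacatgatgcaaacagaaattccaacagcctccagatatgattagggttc
Lyz2: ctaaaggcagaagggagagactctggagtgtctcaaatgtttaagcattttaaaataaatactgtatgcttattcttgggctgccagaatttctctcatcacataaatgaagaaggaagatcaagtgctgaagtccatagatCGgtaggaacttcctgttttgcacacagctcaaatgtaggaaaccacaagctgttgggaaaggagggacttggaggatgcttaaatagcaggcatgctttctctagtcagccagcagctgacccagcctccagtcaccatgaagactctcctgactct
C5ar1: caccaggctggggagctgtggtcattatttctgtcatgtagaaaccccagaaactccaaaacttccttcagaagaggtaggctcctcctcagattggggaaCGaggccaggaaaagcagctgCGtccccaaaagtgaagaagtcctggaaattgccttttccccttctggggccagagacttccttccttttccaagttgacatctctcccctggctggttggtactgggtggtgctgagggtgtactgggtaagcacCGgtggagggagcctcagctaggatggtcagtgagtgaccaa
Rap2c: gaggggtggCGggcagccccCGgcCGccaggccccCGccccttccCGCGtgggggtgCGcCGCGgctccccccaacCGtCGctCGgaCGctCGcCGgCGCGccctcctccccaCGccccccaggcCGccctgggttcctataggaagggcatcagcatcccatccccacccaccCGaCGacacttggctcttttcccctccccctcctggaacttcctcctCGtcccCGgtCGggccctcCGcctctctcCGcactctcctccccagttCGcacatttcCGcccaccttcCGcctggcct
The windows of the myeloid genes Bcl2a1d, Lyz2 and C5ar1 had a GC content of 44.3%, 44.3% and 53.7% and held 4, 1 and 3 CpG, whereas that of Rap2c, a small GTPase gene, had 73.7% and 29 CpG. The word GAGGAAGT, which PU.1 can bind, occurred once on either strand in the windows of Bcl2a1d and of Rap2c.

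As a set, the regions were short and of middling strength. Their median width was 643 bp (167 to 3691 bp), against 1766 bp for the 7589 gene-end regions called in all 8 lists. The median fold enrichment at their peaks, the authors' own value, was 9.16 to 10.2 across the 4 FGR lists, close to the list medians of 8.41 to 9.70 and below the 25.3 to 26.5 of the regions called in all 8 lists. At 800 regions (37.2%) the fold was above 9.71, the highest of any Ctrl H3K4me3 peak, in all 4 FGR lists. The medians of whole FGR lists lay near that value too, and the fold ranges of both groups differed, so this is a description. Just outside the rule, 1009 gene-end regions had a peak in all 4 FGR lists and 1 Ctrl list, and 408 had a peak in 3 FGR lists and no Ctrl list. The farthest region lay 1000 bp from its gene end, and the nearest FGR-only region beyond the window lay 1003 bp away.

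Position set them apart from regions with H3K4me3 in both groups. An annotated start lay in the window of 1298 regions (60.3%, against 79.8% of the regions called in all 8 lists). The far end of a gene alone was touched by 414 regions (19.2%, against 2.19%), and for 440 regions the strand of a gene was not given in the tables used here. A Ctrl H3K4me3 peak lay within 1 kb of 646 regions (30.0%) and within 5 kb of 898 (41.7%). Of the 2176 genes, 1024 had a Ctrl H3K4me3 peak elsewhere at an end, 1152 had none, and 182 carried more than 1 such region.

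Most of these places were either fully acetylated in Ctrl or not acetylated there at all. Both H3K9ac and H3K27ac peaks were present in all 4 Ctrl libraries at 748 regions (34.8%), and no peak of either mark overlapped in any Ctrl library at 744 regions (34.6%). Among the 744, 648 (87.1%) also had no Ctrl acetylation anywhere within 1 kb of the centre. H3K9ac alone stood in all 4 Ctrl libraries at 32 regions and H3K27ac alone at 22, and the other 606 varied between libraries. Of the gene-end regions called in all 8 H3K4me3 lists, 87.8% had both marks in all 4 Ctrl libraries and 0.857% had neither. With all lists of a mark equally long, 4.86% of the 391 remaining regions had no Ctrl acetylation, and where a peak counted only if it covered 50% of a region, 20.8% of 5454 regions had none.

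In the FGR libraries the same regions were arranged differently. Both marks were in all 4 FGR libraries at 392 regions (18.2%) and neither was in any at 176 (8.18%), while H3K9ac alone was in all 4 at 532 (24.7%) and H3K27ac alone at 130 (6.04%). Of the 748 regions with both marks throughout Ctrl, 359 kept both in all 4 FGR libraries, 99 had H3K27ac alone and 107 had no FGR H3K9ac peak at all. Of the 744 without Ctrl acetylation, 336 (45.2%) had H3K9ac in all 4 FGR libraries and 711 had no H3K27ac in any.

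**Figure D1:**
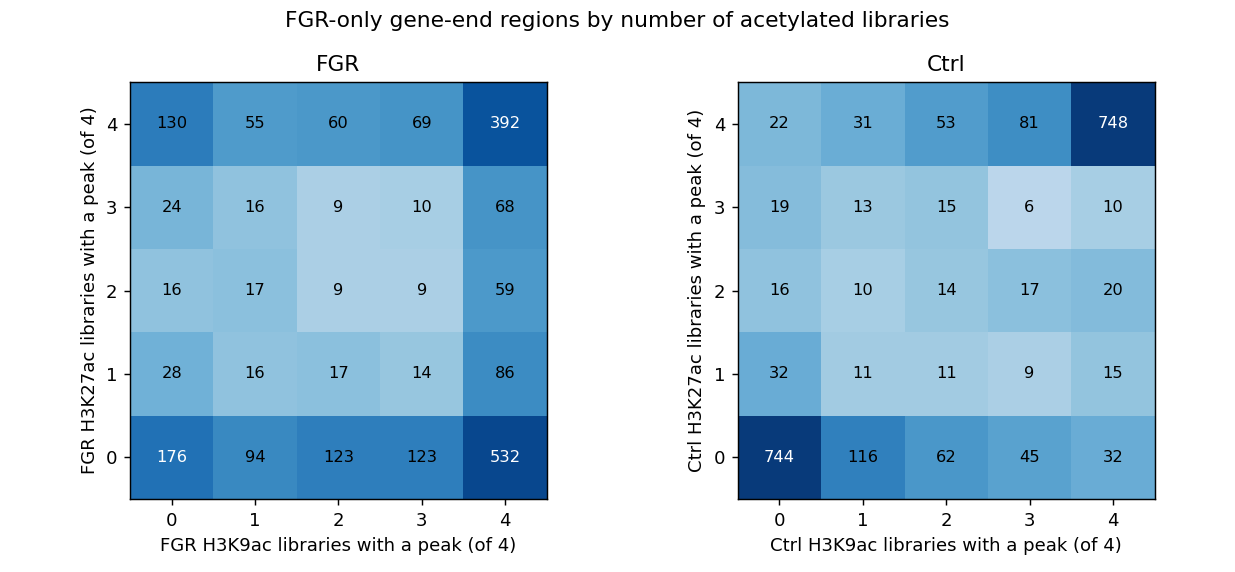
Number of FGR-only gene-end regions by how many of 4 libraries had an H3K9ac peak (horizontal axis) and an H3K27ac peak (vertical axis), for FGR on the left and Ctrl on the right; colour follows the number on a log scale. In Ctrl the corners for both marks (748) and for neither (744) hold most regions, whereas in FGR the corner for H3K9ac alone holds 532 and that for both marks 392.

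Library by library, H3K9ac peaks touched 69.6%, 73.9%, 67.2% and 61.4% of the 2152 regions in FGR, against 48.9%, 50.5%, 50.7% and 48.1% in Ctrl. H3K27ac peaks touched 42.1%, 44.2%, 42.7% and 37.6% in FGR, against 48.6%, 48.8%, 48.0% and 48.0% in Ctrl. The groups did not overlap for either mark, with H3K9ac the more frequent in FGR and H3K27ac the more frequent in Ctrl. The order was the same at gene-end regions called in all 8 H3K4me3 lists, where H3K9ac touched 98.9 to 99.4% in FGR and 97.5 to 97.9% in Ctrl, and H3K27ac 83.7 to 88.4% in FGR and 89.6 to 90.7% in Ctrl. At FGR-only regions away from gene ends, H3K27ac touched 60.8 to 68.0% in FGR and 69.2 to 70.3% in Ctrl. Gene ends without an H3K4me3 peak in any list had H3K9ac at 7.77 to 15.8% in FGR and 1.40 to 2.02% in Ctrl. Their H3K27ac stood at 1.33 to 3.53% in FGR and 3.14 to 3.62% in Ctrl. The means were 68.0% ± 5.21 in FGR and 49.5% ± 1.24 in Ctrl for H3K9ac, and 41.7% ± 2.84 in FGR and 48.3% ± 0.423 in Ctrl for H3K27ac (SD, n = 4 each). FGR lists of both marks were longer than Ctrl lists (H3K9ac 54547 to 86834 peaks in FGR and 42197 to 47707 in Ctrl, H3K27ac 53390 to 78063 in FGR and 45932 to 50068 in Ctrl), and with lists of equal length 76.0% of the 391 regions had H3K9ac and 72.4% H3K27ac in all 4 Ctrl libraries. The 11827 FGR-only H3K4me3 regions away from gene ends had H3K9ac in all 4 FGR libraries at 27.9% and in all 4 Ctrl libraries at 55.1%, against 52.8% in FGR and 38.3% in Ctrl at the gene-end ones.

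**Figure D2:**
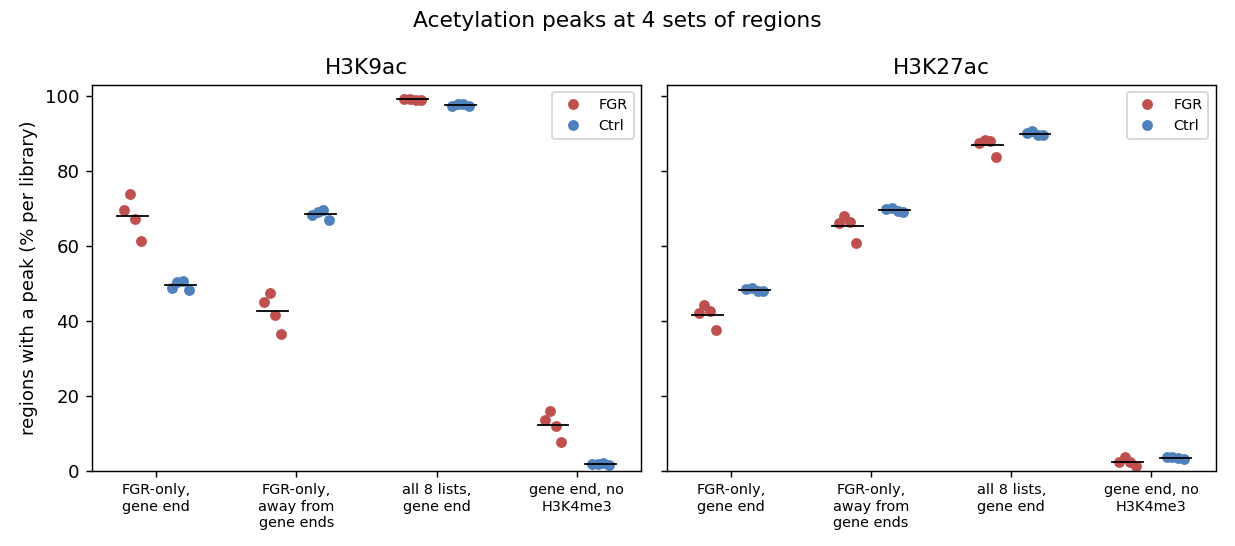
Percent of regions with an H3K9ac (left) or H3K27ac (right) peak in each of 4 FGR and 4 Ctrl libraries, for FGR-only gene-end H3K4me3 regions, FGR-only regions away from gene ends, gene-end regions in all 8 H3K4me3 lists, and gene ends without H3K4me3; each point is a library and each line a mean. At FGR-only gene ends H3K9ac was at 61.4 to 73.9% in FGR and 48.1 to 50.7% in Ctrl, whereas away from gene ends the Ctrl libraries were the higher ones.

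Regions without Ctrl acetylation were the majority at genes of embryonic patterning and at several gene families of neurons. Of 160 developmental transcription factors outside the Hox clusters, 37 (23.1%) had an FGR-only region, and 34 of their 38 regions had no Ctrl acetylation, against 1 with both marks throughout Ctrl. All 11 regions at 8 of the 39 Hox genes lacked Ctrl acetylation, as did 5 of 6 regions at markers of neurons, 14 of 17 at semaphorins, ephrins, slits and their receptors, which steer axons, 10 of 13 at potassium channels and 11 of 16 at protocadherins. Among all 2152 regions that share was 34.6%. Genes with such a region included Sox2, Sox11, Otx1, Pax2, Six2 and Tbx1, and in the Hox clusters Hoxa2, Hoxa4, Hoxa13, Hoxc11, Hoxd1, Hoxd8, Hoxd11 and Hoxd13.

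Nkx6-1, a homeobox factor of spinal cord progenitors and of insulin cells, was one such gene. Its region (chromosome 5, 101663153 to 101665810) had 2.15, 2.49, 2.56 and 2.33 kb of H3K4me3 peak in the 4 FGR libraries. Within 1 kb of its centre, where at most 2 kb can be covered, H3K9ac peaks covered 1.38, 1.71, 1.56 and 1.57 kb in FGR, against 0 kb in every Ctrl library, and no library of either group had H3K27ac. A region at 0 kb in every library of 1 group could be compared only through the peaks of the other group, which sets the direction, so such values are given here and below as a description, with no test.

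Pou3f2, a POU factor of neural precursors, had 1.58, 2.35, 2.49 and 2.2 kb of H3K4me3 in FGR (chromosome 4, 22487955 to 22490457). Its H3K9ac covered 0.475, 0.423, 0.428 and 0.170 kb in FGR and 0 kb in all 4 Ctrl libraries. The region of Hoxd13, which patterns the digits, lay at chromosome 2, 74667957 to 74668856, with H3K9ac of 0.373, 0.603, 0.440 and 0.378 kb in FGR and 0 kb in Ctrl. Both had lower H3K9ac in FGR than Nkx6-1 did.

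Slitrk5, which codes for a membrane protein of synapses, had an FGR-only region at each end of the gene. H3K9ac at the start (chromosome 14, 111674852 to 111676647) covered 1.69, 0.754, 0.719 and 0.977 kb in FGR and 0 kb in Ctrl, and at the far end 0.974, 0.812, 0.474 and 0.694 kb in FGR and 0 kb in Ctrl. With lists of equal length the start averaged 0.79 kb more in FGR than in Ctrl, which is a description too. The other neuronal genes were Bdnf, a neurotrophin, Map2, a dendritic microtubule protein, Rbfox3, the NeuN antigen, and Slc17a7, a glutamate transporter of vesicles. H3K9ac at Map2 covered 0.424, 0.414, 0.508 and 0.313 kb in FGR and 0 kb in Ctrl. No Ctrl library had acetylation at the Bdnf region either, and FGR replicate 3 lacked it too (0.312, 0.429, 0 and 0.329 kb).

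Over the whole marker list of 25 neuronal genes, H3K4me3 was in all 4 FGR libraries at 8 and in all 4 Ctrl libraries at 1, and H3K9ac at 11 in FGR and 1 in Ctrl. H3K27ac was at 1 of 25 in either group. The higher count of H3K4me3 in FGR was not particular to neuronal markers. H3K4me3 was in all 4 libraries at 7 of 15 astrocyte markers in FGR and 6 in Ctrl. For 16 oligodendrocyte-lineage markers it was 6 in FGR and 2 in Ctrl, and for 14 endothelial and mural markers 8 and 3. For 16 markers of lymphocytes and neutrophils it was 5 in FGR and 1 in Ctrl, and for 13 of border-associated macrophages 7 and 3. H3K9ac of 15 astrocyte markers was in all 4 libraries at 9 in FGR and 4 in Ctrl, of 16 oligodendrocyte-lineage markers at 6 in FGR and 2 in Ctrl, and of 14 endothelial and mural markers at 6 in FGR and 3 in Ctrl. Markers of lymphocytes and neutrophils stood at 4 of 16 in FGR and 4 in Ctrl, and those of border-associated macrophages at 5 of 13 in FGR and 6 in Ctrl. H3K27ac was at 2 astrocyte markers in FGR and 3 in Ctrl, and at 3 in FGR and 3 in Ctrl for both the oligodendrocyte and the endothelial and mural lists. The part of other cell types in the result was not tested.

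Other long regions without Ctrl acetylation lay at Cited1, a transcriptional coactivator gene on the X chromosome, at Rims2, a scaffold of presynaptic release sites, at Pawr, a regulator of apoptosis, and at Nexmif, an X-linked gene of neurite extension. Cited1 had H3K9ac of 1.09, 1.27, 0.260 and 0.983 kb in FGR and 0 kb in Ctrl. That mean difference of 0.90 kb was 0.39 kb with lists of equal length. Rims2 averaged 1.15 ± 0.465 kb and Pawr 1.49 ± 0.177 kb in FGR (SD, n = 4), with 0 kb in Ctrl. At Nexmif the FGR values were scattered, at 0.532, 1.49, 0 and 0.260 kb.

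Regions with both marks throughout Ctrl, 34.8% of all, were the majority at several gene lists of microglia but not at every immune list. They made up 6 of 6 regions at 5 of 30 homeostatic microglia genes (among them Cst3, Golm1, Sall1 and Tmem119), 7 of 9 at 8 of 28 genes of disease-associated microglia, 5 of 7 at 6 of 28 complement and phagocytosis genes, 5 of 7 at inflammatory genes and 8 of 12 at CD surface antigens, and none of the CD antigen regions lacked Ctrl acetylation altogether. They were 2 of 5 at interferon response genes, 1 of 2 at genes of border-associated macrophages, 0 of 3 at antigen presentation genes and 4 of 12 at chemokines and their receptors, where another 4 had no Ctrl acetylation. Over all 2152, such regions lay nearer to Ctrl H3K4me3 than those without acetylation, at a median of 3.1 kb against 40.7 kb, with 41.2% against 15.2% within 1 kb. Their median fold was 12.6 against 7.92 and their median width 767 bp against 595 bp, and 26.5% against 11.3% touched only the far end of a gene.

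**Figure D3:**
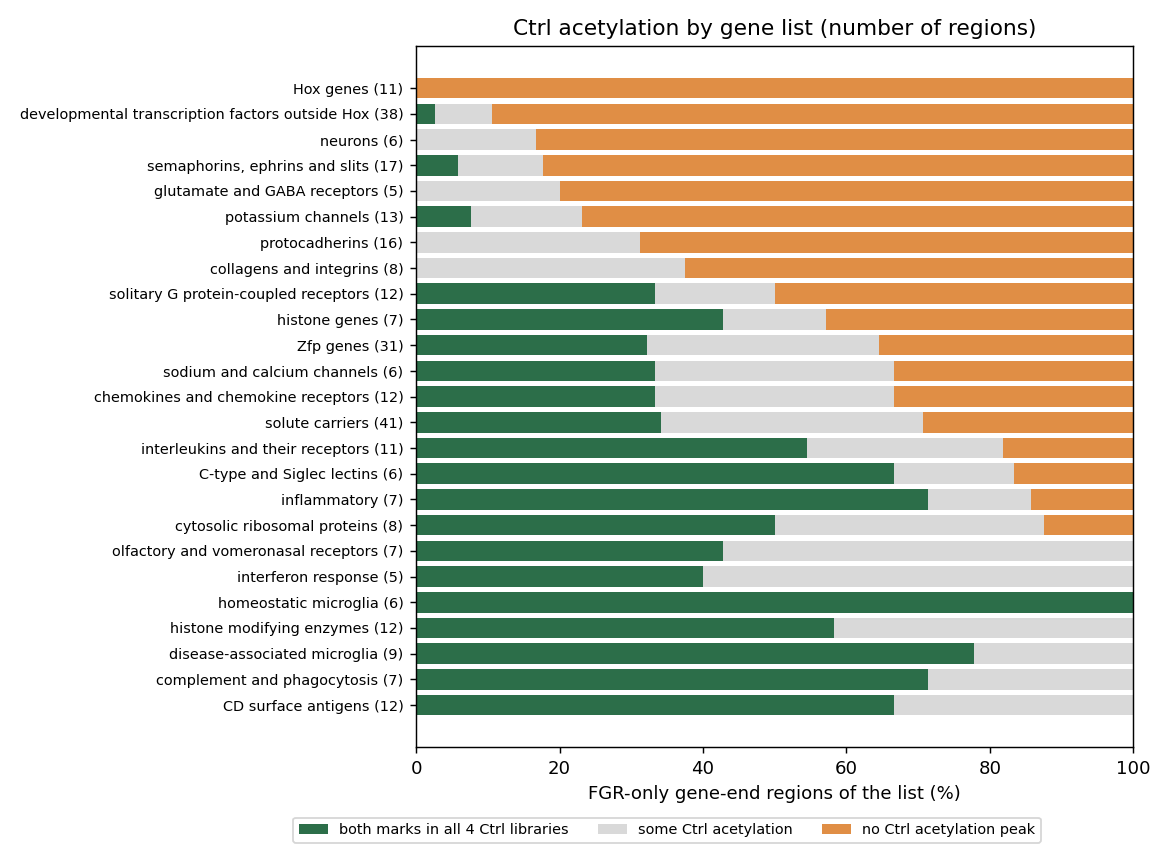
Share of FGR-only gene-end regions with both acetylation marks in all 4 Ctrl libraries, with some Ctrl acetylation, and with none, for each gene list with 5 or more regions (number of regions in brackets). Hox genes (11 of 11) and developmental transcription factors (34 of 38) have almost no Ctrl acetylation, and homeostatic microglia genes (6 of 6) have both marks.

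Tmem119, the gene that carries the reporter allele in both groups, changed in opposite directions for the 2 marks. H3K9ac at its region (chromosome 5, 113792848 to 113794690) covered 1.32, 1.70, 1.44 and 1.61 kb in FGR, against 1.12, 0.661, 0.625 and 0.702 kb in Ctrl. H3K27ac covered 0.467, 0.517, 0.074 and 0.397 kb in FGR, against 1.81, 1.80, 1.62 and 1.93 kb in Ctrl. Neither pair of groups overlapped, H3K9ac was higher in FGR (limma adjusted p = 0.00182) and H3K27ac lower (limma adjusted p = 3.36e-05), and both calls held after quantile normalization.

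H3K27ac was lower at the other homeostatic genes too. Sall1, the transcription factor that maintains microglial identity, had 0.698, 1.03, 0.625 and 0.597 kb of H3K27ac in FGR, against 2, 2, 2 and 1.54 kb in Ctrl (limma adjusted p = 0.000166), at a region by the far end of the gene. The H3K9ac of Sall1 (0.680 ± 0.207 kb in FGR, 0.754 ± 0.58 kb in Ctrl; SD, n = 4 each) did not pass the test. All 6 homeostatic regions fell in H3K27ac, where 82.8% of all gene-end regions tested were lower (9771 of 11801). After quantile normalization 5 of the 6 were lower, against 1077 of all 11801. H3K9ac was higher at 1 and lower at 3 of the 6, against 22.1% higher and 39.1% lower over all regions tested. After quantile normalization it was higher at 1 and lower at 4, against 3768 and 4022 of all 14646.

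At single immune genes H3K9ac went either way or did not pass. It was higher in FGR at the shared region of Il4i1, an amino acid oxidase gene, Il4i1b and Tbc1d17 (1.26 ± 0.424 kb in FGR and 0.152 ± 0.166 kb in Ctrl; SD, n = 4 each; limma adjusted p = 0.00211), and at Cbr2, a carbonyl reductase gene (1.40 ± 0.333 kb in FGR and 0.932 ± 0.154 kb in Ctrl; SD, n = 4 each; limma adjusted p = 0.0402). It did not pass at the chemokine receptors Ccr1 and Cxcr3 or at the interferon-induced genes Rsad2 and Ifitm3 (limma adjusted p from 0.275 to 0.944). The longest of all 2152 regions was that of Bcl2a1d (chromosome 9, 88729252 to 88732942), an anti-apoptotic gene with near-identical copies between which reads may be split. It had 2.97, 3.14, 3.56 and 3.49 kb of H3K4me3 in FGR. H3K9ac covered 0.254, 0.254, 0.339 and 0 kb in FGR, against 1.04, 1.13, 1.11 and 1.13 kb in Ctrl (limma adjusted p = 3.95e-05), and H3K27ac 1.63 ± 0.240 kb in FGR and 1.95 ± 0.098 kb in Ctrl (SD, n = 4 each; limma adjusted p = 0.0309, but 0.443 after quantile normalization). At Ccl4, a chemokine gene, H3K9ac covered 0.299, 0.399, 0.252 and 0.299 kb in FGR and 2 kb in each Ctrl library (limma adjusted p = 1.28e-07). Its H3K27ac covered 1.38 ± 0.292 kb in FGR and 1.99 ± 0.026 kb in Ctrl (SD, n = 4 each; limma adjusted p = 0.00289, but 0.572 after quantile normalization).

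Lyz2, the lysozyme gene of macrophages, had no H3K9ac in any FGR library, against 0.530, 0.599, 0.718 and 0.581 kb in Ctrl. Its H3K27ac of 0.453 ± 0.0375 kb in FGR and 0.604 ± 0.165 kb in Ctrl did not pass (SD, n = 4 each), and was called higher in FGR after quantile normalization (limma adjusted p = 0.0115). The shared region of Clec1b and Clec9a, C-type lectin genes, likewise had 0 kb of H3K9ac in FGR, against 1.76, 1.81, 1.74 and 1.84 kb in Ctrl. At Cxcl10, an interferon-induced chemokine, H3K9ac was 0 kb in FGR and 0.741 ± 0.208 kb in Ctrl (SD, n = 4). C5ar1, the receptor for the complement fragment C5a, did not pass for either mark, with H3K9ac of 1.62 ± 0.334 kb in FGR and 1.98 ± 0.035 kb in Ctrl (SD, n = 4 each), and its H3K27ac, which covered 1.97 ± 0.054 kb in FGR and 2 kb in Ctrl, was called higher in FGR after quantile normalization (limma adjusted p = 0.0227). Both groups were at or near the 2 kb cap, so that call does not show a higher coverage in FGR.

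C1qb, a subunit gene of C1q, which starts the classical complement cascade, was covered almost throughout in both groups. There H3K27ac covered 1.80, 1.71, 1.65 and 1.77 kb in FGR and 2 kb in each Ctrl library (limma adjusted p = 0.00175), and H3K9ac averaged 1.84 ± 0.105 kb in FGR and 2 kb in Ctrl (SD, n = 4; limma adjusted p = 0.0402). Neither call held after quantile normalization.

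**Figure D4:**
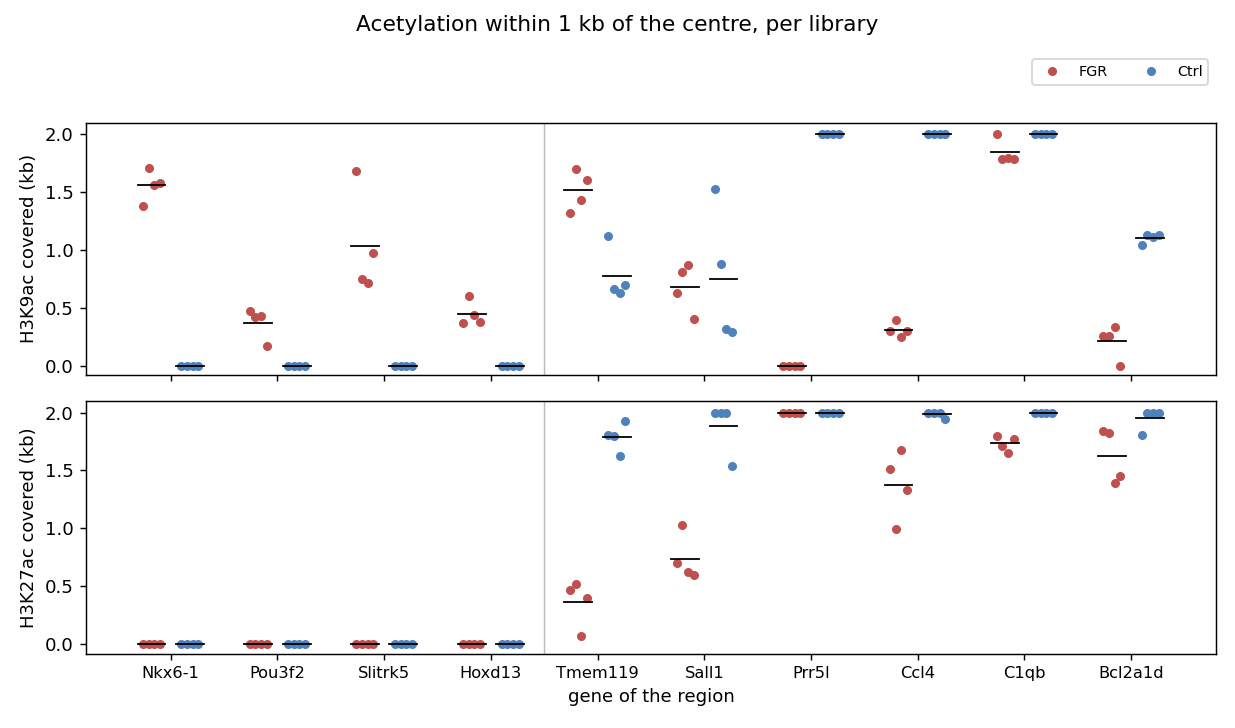
H3K9ac (top) and H3K27ac (bottom) covered within 1 kb of the centre of 10 regions, in kb; each point is 1 FGR or Ctrl library and each line a mean, and the vertical line parts 4 regions without Ctrl acetylation from 6 with both marks. Nkx6-1 has 1.38 to 1.71 kb of H3K9ac in FGR and 0 in Ctrl, Prr5l has 0 in FGR and 2 kb in Ctrl, and Tmem119 is higher in FGR for H3K9ac and lower for H3K27ac.

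Across all gene-end regions, coverage of each acetylation mark was compared between groups by limma, with p-values adjusted over all regions tested. A region was tested if 2 or more of the 8 libraries of the mark had a peak within 1 kb of its centre. H3K9ac was tested at 2007 of the 2152 regions, and 804 were higher and 418 lower in FGR. Of the 14646 regions tested in all, 22.1% were higher and 39.1% lower. H3K27ac was tested at 1262 of the 2152, of which 4 were higher and 993 lower, against 0.246% higher and 82.8% lower among 11801. Covered length depends on peak width, and median H3K27ac peaks were 314 to 365 bp wide in FGR and 825 to 920 bp in Ctrl. The part of peak width in these calls was not tested. The median difference in H3K9ac was 0.181 kb, against -0.114 kb over all regions tested, and in H3K27ac -0.47 kb against -0.51 kb. A region without Ctrl acetylation could be tested only through its FGR peaks, so these counts hold regions that had to be higher: 619 of the 744 entered the H3K9ac test in that way or through peaks beside the region, and 471 of them were higher.

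Quantile normalization, which gives all libraries of a mark the same distribution, moved the median of all regions to 0.0021 kb for H3K9ac and to 0.0343 kb for H3K27ac. The 2152 regions then counted 664 higher and 419 lower for H3K9ac, against 3768 and 4022 of all 14646. For H3K27ac they counted 169 higher and 125 lower, against 4 and 993 without this step, so most H3K27ac calls were not kept. Of all 11801, 1475 were then higher and 1077 lower. Some regions covered over the full 2 kb in all 8 libraries, such as that of Prr5l, were among those called higher. Such calls come without a difference in coverage. With lists of equal length, 88 of the remaining 391 regions were higher and 117 lower in H3K9ac. In H3K27ac, 1 was then higher and 287 lower of 339 tested, and 8684 of all 9975 regions tested were lower.

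H3K9ac calls were also counted by position, with regions at 0 kb in Ctrl among them. Of 828 tested regions at CpG-rich starts (a GC content of at least 50% and an observed to expected CpG ratio of at least 0.6), 379 were higher and 118 lower in FGR, and of 396 at other starts 155 were higher and 96 lower. After quantile normalization the counts were 341 higher and 86 lower at CpG-rich starts, and 101 higher and 110 lower at other starts. At the far ends of genes 91 of 380 were higher (23.9%) and 144 lower (37.9%), near the 22.1% and 39.1% of all regions tested, with a median of -0.13 kb against -0.114 kb. There 78 were higher and 158 lower after quantile normalization. H3K9ac stood in all 4 libraries at 44.0% of far-end regions in FGR and 50% in Ctrl, against 55.5% in FGR and 35.9% in Ctrl at starts.

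Since H3K27ac was higher at 4 of the regions, few could be higher in both marks. At 163 regions H3K9ac was higher and H3K27ac lower, at 359 both were lower, at 1 both were higher, and at 566 H3K9ac was higher where H3K27ac was not tested. Over all 15103 gene-end regions these counts were 779, 4989, 12 and 2093. Of the 566, 442 had no overlapping Ctrl acetylation peak and entered the H3K9ac test through FGR peaks or peaks beside the region. Their direction was largely set in advance, so the 566 are a description. Among the 748 regions with both marks throughout Ctrl, a set defined by the Ctrl acetylation itself and given as a description, H3K9ac was higher at 89 and lower at 362, and H3K27ac lower at 675.

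The 4 regions named for the smallest p of a gain in H3K9ac had no acetylation peak in any Ctrl library and were compared through their FGR peaks, so that their values are a description. At Nxph4, which codes for a neurexophilin of synapses, H3K9ac covered 1.31, 1.31, 1.23 and 1.25 kb in FGR and 0 kb in Ctrl. Adamtsl5, an extracellular matrix gene, averaged 1.27 ± 0.0662 kb in FGR, Nptxr, the neuronal pentraxin receptor gene, 0.969 ± 0.0286 kb, and Hdgfl3, a growth factor-like gene, 1.10 ± 0.0595 kb (SD, n = 4), all against 0 kb in Ctrl. On the other side, Prr5l, which codes for a partner of the kinase complex mTORC2, had 0 kb of H3K9ac in every FGR library and 2 kb in every Ctrl library, while H3K27ac covered the full 2 kb in all 8. Quantile normalization called that H3K27ac higher in FGR, but all 8 values were equal and at the cap. The call therefore shows no difference in coverage. At Pop1, a subunit gene of RNase P, H3K9ac covered 0.693, 0.683, 0.586 and 0.675 kb in FGR and 1.75, 1.83, 1.85 and 1.81 kb in Ctrl (limma adjusted p = 1.05e-06).

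For H3K27ac, regions with the smallest p of a loss were at Soga1, at the far end of Gfm2, a mitochondrial translation factor gene, and at the shared region of Pafah1b2 and Sik3. Soga1 had 0.317, 0.566, 0.414 and 0.414 kb in FGR and 2 kb in each Ctrl library (limma adjusted p = 1.08e-05), with H3K9ac of 1.26 ± 0.108 kb in FGR and 1.29 ± 0.174 kb in Ctrl (SD, n = 4 each; limma adjusted p = 0.819). The 4 regions higher in H3K27ac were those of Cd69, an activation antigen of lymphocytes, and of Zfp968, and those of the predicted genes Gm2004 and Gm2974, which are named after their values were seen (0.483 and 0.271 kb in FGR, 0 kb in Ctrl). All 4 were at 0 kb in every Ctrl library, which set the direction, so their values are a description. Cd69 had 0.460, 0.209, 0.189 and 0.302 kb in FGR and 0 kb in Ctrl. Zfp968, a zinc finger gene with near-identical neighbours, had 0.193 ± 0.0731 kb in FGR and 0 kb in Ctrl (SD, n = 4). With lists of equal length neither passed.

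The tests were also counted by gene list, with the lists chosen with these data known. Most regions of developmental transcription factors, Hox genes, neuronal markers, axon guidance genes, potassium channels and protocadherins had no Ctrl peak and could enter only through FGR peaks, so no count of calls is given for them. In the other lists, where 22.1% of all regions tested were higher and 39.1% lower, H3K9ac was lower at 5 of 9 and higher at 1 of 9 regions of disease-associated microglia genes (4 and 3 after quantile normalization), lower at 2 of 7 complement regions (0 after quantile normalization), and lower at 6 of 11 regions of CD antigens. H3K27ac was lower at 6 of 9, 6 of 7 and 8 of 9 tested regions of these 3 lists, where 82.8% of all regions tested were lower. After quantile normalization the counts were 4, 1 and 2, and it also called 2, 1 and 1 higher, against 1077 lower and 1475 higher of all 11801.

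The X chromosome stood apart from every autosome in the share of these regions. Of its 496 gene-end H3K4me3 regions, 206 (41.5%) were FGR-only, against 10.6 to 15.9% on the autosomes, and 26 (5.24%) were in all 8 lists, against 47.4 to 59.9%. The X held 9.57% of the FGR-only gene-end regions, 0.343% of those in all 8 lists and 4.47% of protein-coding genes. Among all peaks, the X took 2.33 to 2.44% in FGR and 0.834 to 1.18% in Ctrl for H3K4me3, but 1.64 to 2.30% in FGR and 1.54 to 1.61% in Ctrl for H3K9ac, and 1.83 to 1.85% in FGR and 2.05 to 2.15% in Ctrl for H3K27ac. The Y chromosome had 44 to 53 H3K4me3 peaks in FGR and 2 to 7 in Ctrl, and 100 to 192 H3K9ac peaks in FGR and 10 to 17 in Ctrl. Its H3K27ac peaks numbered 25 to 31 in FGR and 21 to 26 in Ctrl, so that lists of both groups held Y peaks, and no list of either group had a peak at Xist.

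**Figure D5:**
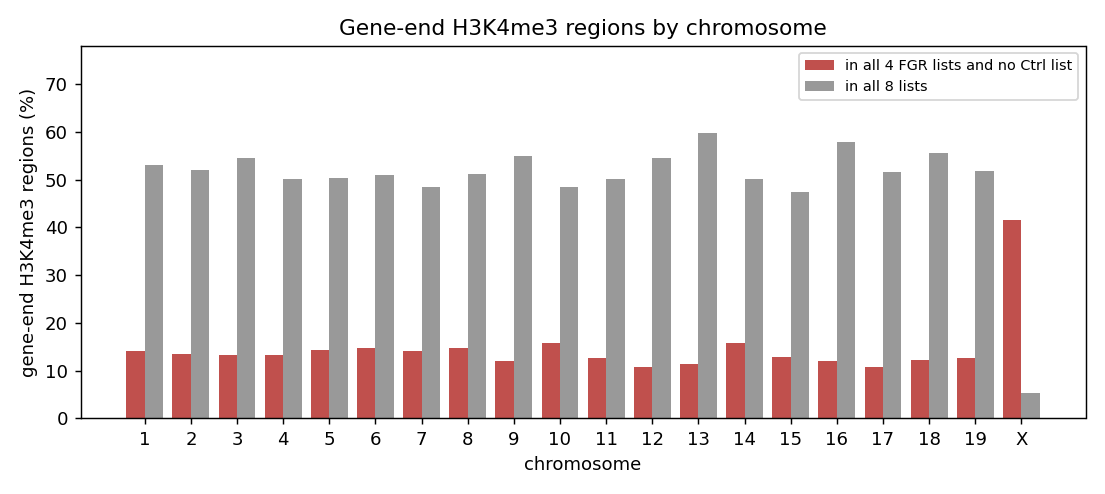
Percent of the gene-end H3K4me3 regions of each chromosome that were in all 4 FGR lists and no Ctrl list, and in all 8 lists. The X stands at 41.5% FGR-only and 5.24% in all 8 lists, and the autosomes at 10.6 to 15.9% and 47.4 to 59.9%.

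In Ctrl, 92 of the 206 X regions (44.7%) had both acetylation marks in all 4 libraries and 59 (28.6%) had neither, against 33.7% and 35.2% of the autosomal regions. H3K9ac was higher at 58 and lower at 50 of 185 tested X regions (22.1% were higher and 39.1% lower over all regions tested), and 42 and 54 after quantile normalization. H3K27ac was lower at 111 of 127 (87.4%, against 82.8% of all regions tested) and higher at 0 by limma, and after quantile normalization it was higher at 11 and lower at 11. Tsc22d3, which codes for the glucocorticoid-induced leucine zipper, had H3K9ac of 1.85, 1.93, 1.81 and 1.85 kb in FGR, against 0.940, 1.35, 1.43 and 1.01 kb in Ctrl. Its H3K27ac was 0.167, 0.163, 0 and 0.151 kb in FGR, against 1.11, 1.22, 1.06 and 1.22 kb in Ctrl. Neither mark overlapped between groups, with H3K9ac higher and H3K27ac lower in FGR (limma adjusted p = 0.0013 and 1.78e-05). Rap2c, whose start is shown above, was lower in both marks, at 1.46 ± 0.133 kb of H3K9ac in FGR and 2 kb in Ctrl and 1.10 ± 0.0919 kb of H3K27ac in FGR and 2 kb in Ctrl (SD, n = 4; limma adjusted p = 0.000281 and 2.06e-05).

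Start windows were available from RefSeq for 1235 genes of the regions that hold a start. Their median GC content was 62.3%, and 65.3% were CpG-rich, against 77.3% of 5951 windows of regions in all 8 lists and 45.6% of 21044 windows of all genes. The shares of both acetylation sets, given above, rest on 398 windows where Ctrl had both marks and 454 where it had neither. The word GAGGAAGT, or ACTTCCTC on the other strand, was in 6.53% of the windows with both marks in Ctrl and in 1.76% of those with neither, against 3.15% of all windows. The cyclic AMP response element TGACGTCA, which reads the same on both strands, was in 3.52% and 1.10% of these sets and in 2.26% of all windows. The word TATAAA, on either strand, was in 6.88% of the windows of FGR-only regions and in 12.7% of all windows. In windows of regions in all 8 lists, GAGGAAGT stood at 3.26%, TGACGTCA at 3.98% and TATAAA at 6.37%. A match in a window is not evidence of binding.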

How the data were processed

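Hippocampal microglia were profiled for 4 histone marks. The authors deposited 1 peak list per library in the layout of MACS2, 32 in all; the submitters' processing notes name MACS2 2.2.7.1, Bowtie2 2.4.5, DiffBind 3.12.0, Trim Galore 0.6.5, SAMtools 1.3.1 and the build mm10, with no role. The deposited values are, per peak, a fold enrichment (a ratio over local background), −log10 p and −log10 q, and a score made from them; calling options and controls were not given in the sources used here. An input library of each group was not used here. From the lists, H3K4me3 peaks were merged where they shared 1 bp, and the rule given at the start was applied with RefSeq genes of autosomes and X. The members and gene lists were chosen with earlier results of these data known.

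Acetylation was measured as kb of peaks within 1 kb of a region's centre and compared between 4 FGR and 4 Ctrl libraries with limma (version 3.58.1, R 4.3.3), two-sided, with Benjamini-Hochberg adjustment over all regions tested and a threshold of 0.05, with no replicate block. A covered length stops at 2 kb, depends on list length and peak width, and hides differences in height. Regions were named by length of H3K4me3 (8 of all, 6 without Ctrl acetylation), by Ctrl acetylation (6), by smallest p per mark and direction (4), and by gene list (up to 4 each). Regions with predicted genes only were not named, and some items that the rule names are not reported here. Genes given without values, to fill a list, are outside that rule. Alternatives were a stricter q, equal list lengths, 50% overlap, a gene-end window of 500 bp, coverage within 2 kb, no filter, quantile normalization, leaving out each replicate, a replicate block and, chosen after seeing the data, exchanged FGR labels.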

Additional observations from a re-analysis of the deposited data

Results flagged for a closer look

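Of 32 groups of 4 libraries at the named regions, 3 had 1 library far from the others, where chance gives about 1 in 20. H3K9ac at Pop1 covered 0.586 kb in FGR replicate 3, against 0.675 to 0.693 kb in the other FGR libraries. H3K27ac at Zfp968 covered 0.301 kb in FGR replicate 2, against 0.148 to 0.173 kb in the others. H3K27ac at the shared region of Pafah1b2 and Sik3 covered 0.169 kb in FGR replicate 4, against 0.318 to 0.347 kb in the others. At Pop1 and at Pafah1b2 and Sik3, all 4 FGR libraries were below all 4 Ctrl libraries.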

How the results depend on the processing

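With lists of equal length the rule gave 391 regions, of which 76.0% had H3K9ac in all 4 Ctrl libraries, 72.4% H3K27ac and 4.86% neither in any. H3K9ac was then higher at 88 and lower at 117 of them (2064 higher among all gene-end regions), and H3K27ac higher at 1 and lower at 287 (7 higher among all). Where a peak had to cover 50% of a region, 5454 regions met the rule, with shares of 58.4%, 56.5% and 20.8% in the same order. A −log10 q of at least 3 gave 2329 regions and 42.3% for H3K27ac, and a window of 500 bp gave 1831 regions, 42.1% for H3K27ac and 35.6% for neither. Coverage within 2 kb left 19 of all regions higher in H3K27ac. Quantile normalization gave 169 of the regions higher and 125 lower in H3K27ac (1475 and 1077 of all). Among those higher were regions at the cap of covered length in every library. Exchanged FGR labels, chosen after seeing the data, gave shares of 24.1%, 28.7% and 52.9%.

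Without 1 replicate at a time, the rule gave 2196 to 2524 regions, with 37.4 to 43.0% for H3K9ac, 43.3 to 45.2% for H3K27ac and 34 to 36.0% for neither. Of these, 737 to 822 were higher and 359 to 471 lower in H3K9ac, and 4 to 7 higher and 971 to 1125 lower in H3K27ac (without FGR replicate 2 or FGR replicate 4, 7 were higher). Over all regions, 2738 to 3056 were higher and 5073 to 5623 lower in H3K9ac, and 20 to 35 higher and 9121 to 9613 lower in H3K27ac. Same-numbered FGR and Ctrl libraries did not deviate together (r from -0.0134 to 0.0167), and with a replicate block 753 regions were higher and 386 lower in H3K9ac and 4 higher and 961 lower in H3K27ac. At the regions named for the smallest p, the only ones for which all kinds of alternative were run, 183 values kept direction and call, and the other 3 were Cd69 with equal lists (0.12 kb, limma adjusted p = 0.163) and Zfp968 with equal lists (0.12 kb, 0.0783) and within 2 kb (0.19 kb, 0.0649). The other named regions were refitted with quantile normalization and equal lists alone, and where these ended a call whose p is printed, the text says so beside it. Read depth is unknown, covered length is capped, and the causes of these changes were not tested.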

Other observations

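Histone modifying enzymes had 12 regions at 9 genes, 7 with both marks throughout Ctrl and none without Ctrl acetylation. At Kdm3a, a demethylase gene of H3K9, both marks were lower in FGR, with H3K9ac of 1.04, 1.08, 1.07 and 1.04 kb in FGR and 1.48, 1.35, 1.38 and 1.42 kb in Ctrl (limma adjusted p = 0.000228), and H3K27ac of 0.874 ± 0.0973 kb in FGR and 1.48 ± 0.0497 kb in Ctrl (SD, n = 4 each; limma adjusted p = 0.0001, not called after quantile normalization). Hdac6, a deacetylase gene on the X, had H3K9ac of 1.42, 1.49, 1.39 and 1.23 kb in FGR, against 0.936, 1.01, 1.13 and 0.906 kb in Ctrl (limma adjusted p = 0.00252). Its H3K27ac was 0.126 ± 0.153 kb in FGR and 0.954 ± 0.0938 kb in Ctrl (SD, n = 4 each; limma adjusted p = 0.000102, but 0.08 after quantile normalization). Solute carriers had 41 regions, 14 with both marks and 12 with neither in Ctrl, and ribosomal protein genes 8, 4 with both and 1 with neither. Zfp genes had regions at 29 of 367 (7.90%), and olfactory and vomeronasal receptors at 7 of 1465 (0.478%), both below the 10.1% of all genes. Members of these last lists have near-identical copies, between which reads may be split.

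Glul, the glutamine synthetase gene, a marker of astrocytes that microglia also express, had a region at its far end with both marks throughout Ctrl. H3K9ac there covered 0, 0.254, 0.255 and 0 kb in FGR, against 1.49, 1.76, 1.53 and 1.36 kb in Ctrl (limma adjusted p = 2.05e-05), and H3K27ac 0.972 ± 0.189 kb in FGR and 2 kb in Ctrl (SD, n = 4; limma adjusted p = 5.35e-05).

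H3K9me3, a mark of repressed chromatin, touched 0.418 to 1.25% of the FGR-only gene-end regions per FGR library. In Ctrl, replicates 1 to 3 touched 2.46 to 4.23% and replicate 4 touched 0%. The Ctrl lists held 482313, 441919, 340305 and 199 peaks, with a lowest −log10 q of 0 in the first 3 and 1.40 in the last, so that H3K9me3 was not compared between groups.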
